A study of Mus musculus with 2 samples.

Results

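Galectins are lectins that bind beta-galactosides, and the genes described here were 7 galectin genes (Lgals1, Lgals3, Lgals4, Lgals7, Lgals8, Lgals9 and Lgals12) together with Lgals3bp, which encodes a secreted glycoprotein that binds galectins. They were taken by gene name from the deposited expression table, and all 8 were found among 34745 listed genes. The data came from monocytic myeloid-derived suppressor cells (M-MDSCs), which were induced in vitro from mouse bone marrow over 7 days and sorted by flow cytometry. One condition received GM-CSF alone (CHBP- M-MDSC) and the other received GM-CSF and CHBP (CHBP+ M-MDSC), a cyclic peptide derived from erythropoietin that does not drive red cell production. GM-CSF was thus common to both. The strain label reads C57BL/6 for the CHBP- sample but C57BL/7 for the CHBP+ sample, while the growth protocol names C57/B6 mice for both. The labels give neither a CHBP dose nor the age or number of animals behind each library.

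Each condition was sequenced as 1 library, so no difference between CHBP- and CHBP+ M-MDSC had a replicate check, and treatment cannot be told apart from any other difference between the 2 libraries. No p-value between the conditions was therefore computed. The libraries held 16484504 (CHBP-) and 16280466 (CHBP+) counted reads. Of the markers that define M-MDSCs, Itgam (CD11b) was at 157 and 232 FPKM (reads scaled by gene length and by the library's counted reads) in its main entry. Ly6c2 was at 56.9 and 34.0 FPKM, and Ly6g, the marker that granulocytic cells carry and M-MDSCs lack, had 46 and 44 reads. The summed FPKM of 7 erythroid markers was 1305 without CHBP and 602 with it, and that of 10 neutrophil markers was 3264 and 2969. All 6 erythroid markers with at least 1 FPKM were lower, Hbb-bs most (708 and 212 FPKM). Of the neutrophil markers 3 were higher, among them Mmp8 (1290 and 1546 FPKM), and 7 lower. With the trend on implied gene length described below removed, 6 neutrophil markers were higher and 4 lower, while all 6 erythroid ones stayed lower. The part of other cells in the values of galectins was not tested, and in such bulk RNA fewer cells of a type and less RNA per cell cannot be told apart.

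Galectins are made without a signal peptide and act both outside the cell, where they cross-link glycoproteins of T cells and myeloid cells, and inside it, where they bind glycans exposed on broken vesicles. By structure they are prototype galectins with a single carbohydrate recognition domain (galectin-1 and galectin-7), tandem-repeat galectins with a pair of such domains (galectin-4, galectin-8, galectin-9 and galectin-12), and the chimeric galectin-3, with a long N-terminal tail. Galectin-1, galectin-3 and galectin-9 are known for damping T-cell responses, and galectin-3 has long served as the macrophage antigen Mac-2.

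The galectin message of these cells was nearly all Lgals3 and Lgals1. Lgals3 stood at 964 FPKM without CHBP and at 810 FPKM with it, from 44280 and 36730 reads. It ranked 42nd and 40th by FPKM among the 10948 genes with at least 1 FPKM in either library, which were the genes kept for counting. Lgals1 stood at 645 and 470 FPKM, from 8506 and 6116 reads, and ranked 68th and 72nd. Together these genes made up 96.2% of the summed FPKM of all galectin-fold genes in the CHBP- library and 95.5% in the other. The sum covered 10 genes, of which 7 had reads, and it includes Lgals2 and the galectin-related genes Lgalsl and Grifin but not Lgals3bp. It came to 1672 FPKM without CHBP and 1340 with it, a ratio of 0.801.

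Lgals9 was next, at 50.1 FPKM (2699 reads) without CHBP and 47.0 FPKM (2501 reads) with it. It made up 3.00% and 3.51% of the galectin FPKM. Lgals3bp stood at 14.8 and 16.1 FPKM (1053 and 1136 reads) and Lgals8 at 8.91 and 9.87 FPKM (1390 and 1521 reads). Lgals4, a galectin mainly of the gut epithelium, was low at 2.70 and 2.15 FPKM (164 and 129 reads). Lgals7, a galectin of stratified epithelium, had 4 and 2 reads. Lgals12, known from adipose tissue, had no reads in either library. Taking 3 reads as the limit, this allows a level of up to 0.182 and 0.184 CPM (reads scaled by the library's counted reads alone). Thus Lgals3, Lgals1 and Lgals9 were the highest galectins here, and Lgals4, Lgals7 and Lgals12 were low or without reads.

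**Figure D1:**
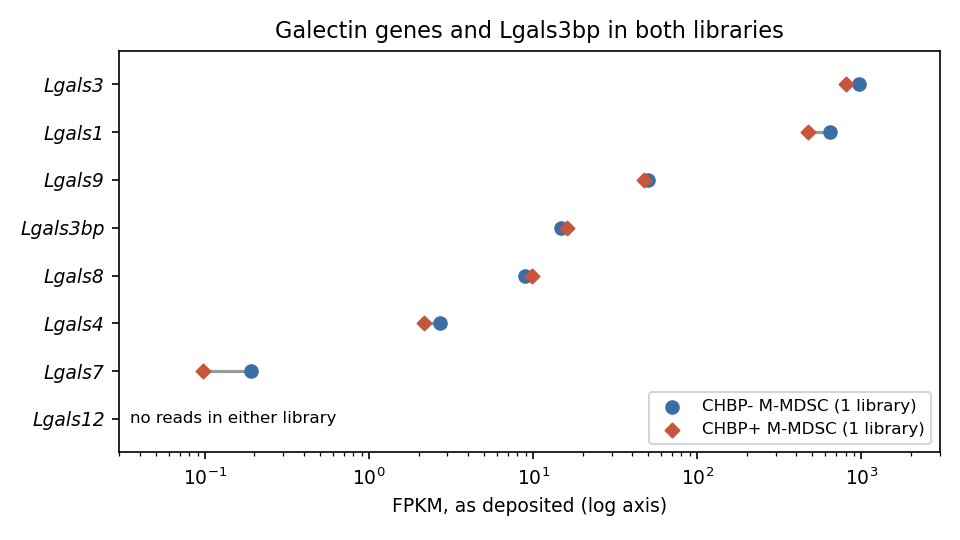
FPKM as deposited (log axis) of each galectin gene and of Lgals3bp in the CHBP- M-MDSC library (circles) and the CHBP+ M-MDSC library (diamonds), 1 library each, joined by a line. Lgals3 and Lgals1 lie above 400 FPKM in both libraries, Lgals7 lies under 1 FPKM and Lgals12 had no reads.

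The low galectins were set beside markers of the cells they are known from. Of 6 adipocyte markers, 4 (Adipoq, Plin1, Lep and Cidec) had no reads in either library, and the others were Fabp4 (236 and 176 reads) and Pparg (75 and 93 reads), which myeloid cells also use. Of 7 epithelial markers, Krt5, Krt14 and Cldn4 had no reads and Krt8 had 1 read in each library. Epcam was at 0.654 and 0.602 FPKM, Krt18 at 2.69 and 2.50 FPKM, and Cdh1 at 13.4 and 16.2 FPKM. The summed FPKM of the epithelial list was 16.8 without CHBP and 19.3 with it, most of it Cdh1. The difference in Lgals4 (164 and 129 reads) was not beyond counting error. Whether the Lgals4 reads came from cells of another type was not tested.

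The order of the levels depended in part on the length used. The deposited FPKM imply a length of 2787 bases for Lgals3, against 1419 bases for its longest coding transcript in GENCODE M1, whereas both lengths are 800 bases for Lgals1. Lgals3 was therefore 1.49 times Lgals1 by deposited FPKM in CHBP- M-MDSC and 2.93 times by reads per longest transcript, and in CHBP+ M-MDSC it was 1.72 and 3.39 times. By that measure, chosen after seeing the data, Lgals3 made up 70.6% and 72.4% of the galectin message. For Lgals8, 9464 bases were implied against 2843 in the longest transcript, and its level became 29.7 and 32.9 on that scale, just above Lgals3bp at 27.4 and 29.9. The order of Lgals8 and Lgals3bp thus turned with the choice of length, while Lgals3, Lgals1 and Lgals9 kept theirs.

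Promoter sequence was looked up for the abundant members, and that of Lgals3, the highest, and of Lgals9, a gene known to respond to interferon, is shown here. RefSeq windows on GRCm38.p6 run from 250 bases before to 50 bases after the annotated start, and 6 of the 8 members had an entry. Lgals1 and Lgals12 had none. The Lgals3 window lies at chr14:47373610-47373909 on the plus strand and that of Lgals9 at chr11:78984875-78985174 on the minus strand. Capitals mark GC boxes (GGGCGG) in Lgals3 and, in Lgals9, pairs of GAAA repeats separated by 2 bases, the core of the interferon-stimulated response element. Both strands were searched, so a match can read as its reverse complement.
Lgals3: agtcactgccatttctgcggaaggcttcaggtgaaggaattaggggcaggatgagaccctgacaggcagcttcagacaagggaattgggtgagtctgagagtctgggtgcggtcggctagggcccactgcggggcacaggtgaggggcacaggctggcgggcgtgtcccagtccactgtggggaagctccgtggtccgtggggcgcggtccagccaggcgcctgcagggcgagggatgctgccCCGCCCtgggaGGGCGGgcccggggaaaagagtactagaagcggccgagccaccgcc
Lgals9: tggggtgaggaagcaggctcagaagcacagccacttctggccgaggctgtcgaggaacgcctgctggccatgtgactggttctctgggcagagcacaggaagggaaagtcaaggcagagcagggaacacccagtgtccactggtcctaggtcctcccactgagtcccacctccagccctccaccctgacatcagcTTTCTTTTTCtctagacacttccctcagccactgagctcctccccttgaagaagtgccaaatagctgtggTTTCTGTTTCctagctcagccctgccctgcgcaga
Lgals3 held 2 GC boxes, which begin at -7 and 5 relative to the start, and a GC box was present in 35.7% of 32851 such windows. Lgals9 held 2 of the paired repeats, which begin at -55 and 16 and do not overlap, and such a pair was present in 3.44% of windows. No match to the paired repeat was found in the windows of Lgals3, Lgals3bp, Lgals4, Lgals7 or Lgals8. The AP-1 letters TGANTCA (7.81% of windows) and the TATA letters TATAAA (13.6% of windows) matched in none of the 6. A match is a description of these letters only, and factor binding was not measured.

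The comparison of CHBP+ with CHBP- M-MDSC asked which messages differ when CHBP is added to GM-CSF. None of the 6 members kept was 1.5-fold apart between the libraries. Ratios were taken on the log2 scale as CHBP+ over CHBP-, with 1 added to each FPKM, and ran from -0.46 for Lgals1 to 0.13 for Lgals8 among them. By count, 0 were at least 1.5-fold higher and 0 at least 1.5-fold lower, where 3.42% of all genes kept were higher and 2.89% lower by that measure. The members' median was -0.16, with 2 higher and 4 lower, and the median of all genes kept was -0.03, with 46.3% higher and 53.7% lower. Lgals7 and Lgals12 were below the minimum of 1 FPKM and were not counted.

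Among the extracellular regulators of T cells, Lgals1 had the lowest ratio. It had 516 CPM without CHBP and 376 CPM with it, a ratio of 0.728 (0.704 to 0.752, the exact 95% Clopper-Pearson interval). These intervals cover counting error only, since each condition has 1 library. Reads are not independent molecules, so the intervals can be too narrow even for that. Lgals3 was at 2686 and 2256 CPM, a ratio of 0.840 (interval 0.828 to 0.852). Its log2 ratio of FPKM was -0.25. Lgals9 was at 164 and 154 CPM, a ratio of 0.938 (0.888 to 0.991) and a log2 ratio of -0.09. With reads scaled by library totals, all 3 were lower in the CHBP+ library and their intervals lay below 1, for Lgals9 only narrowly. All 3 differed by less than 1.5-fold. With the median log2 ratio of all genes kept set to 0, Lgals9 was at -0.06, and no interval was computed at that scaling.

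Lgals8 and Lgals3bp lay on the other side. Lgals8, whose protein marks damaged vesicles for autophagy, was at 84.3 and 93.4 CPM, a ratio of 1.11 (1.03 to 1.19). Lgals3bp was at 63.9 and 69.8 CPM, a ratio of 1.09 (1.004 to 1.19), so that its lower bound just passed 1. For Lgals4 the ratio was 0.796, and its interval (0.627 to 1.01) held 1. For Lgals7 the few reads allowed any ratio from 0.0458 to 3.53, and a difference was not detectable at this depth. The galectin-like gene Lgalsl, expressed at 0.992 and 1.30 FPKM, had 77 and 100 reads, with an interval from 0.967 to 1.79 that also held 1. No listed gene overlaps any of the 8 members, and the pseudogenes Lgals1-ps1 and Lgals1-ps2 had no reads in either library.

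The galectin make-up shifted little. Lgals3 went from 57.7% of the galectin FPKM without CHBP to 60.4% with it, and Lgals1 from 38.6% to 35.1%. In reads, all galectin-fold genes together took 0.347% of the CHBP- library and 0.289% of the CHBP+ library.

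The members' ratios ran with the length of their messages, as did those of genes in general. Across the 10948 genes kept, which are not independent of each other, the implied gene length and the log2 ratio had a Spearman's rho of 0.478. Across the 10211 with a coding transcript in GENCODE M1, rho with the length of the longest transcript was 0.687. Lgals1 has the shortest message of the members kept (800 bases) and had the lowest ratio, while Lgals8 has the longest (2843 bases) and had the highest.

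**Figure D2:**
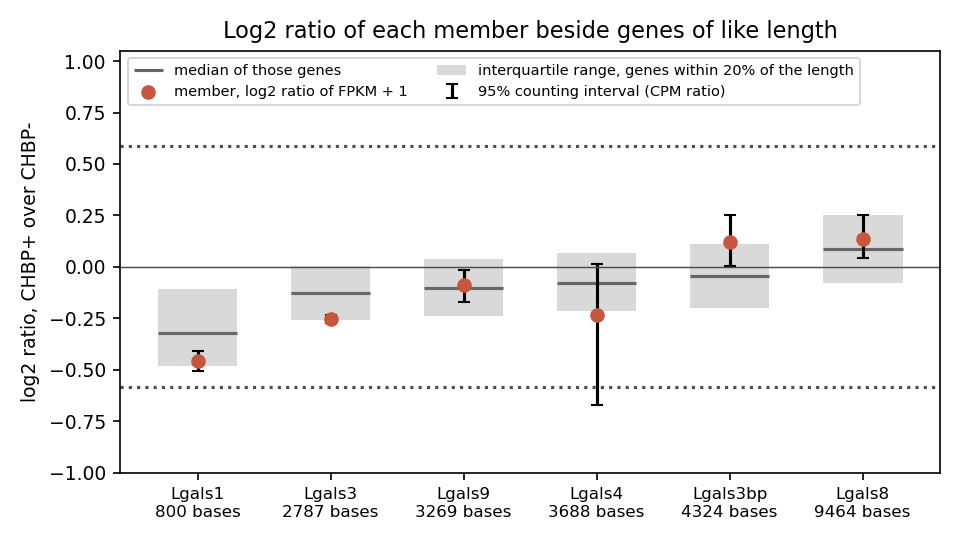
Log2 ratio of CHBP+ over CHBP- M-MDSC for the 6 members kept (points), ordered by implied gene length, with the 95% Clopper-Pearson interval of the CPM ratio for counting error (bars), the median (line) and interquartile range (grey) of genes within 20% of that length, and dotted lines at 1.5-fold. All 6 points lie between the dotted lines, and Lgals1 lies lowest, where genes of its length also had a median below 0.

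Each member was then set beside the genes kept whose implied length was within 20% of its own. The 308 genes like Lgals1 had a median log2 ratio of -0.32, and 27.9% of them were lower than Lgals1 itself. The 1479 genes like Lgals3 had a median of -0.13, with 26.4% lower than Lgals3. Lgals1 and Lgals3 were thus below the median of genes of their length but inside the interquartile range, which reached from -0.48 to -0.11 and from -0.26 to 0.005. Lgals9 was close to the median of its 1710 genes (-0.10). Lgals3bp was the member farthest towards the upper end, with 76.1% of 1983 genes lower than it and a median of -0.04 among them. Lgals8 was near the median of 0.08, and Lgals4 below its median of -0.08, with 22.7% of 1852 genes lower. Lgals3bp (0.12) and Lgals4 (-0.23) lay only just outside the interquartile range of their genes, which reached up to 0.11 and down to -0.22. Those edges fell within the members' counting intervals on the log2 scale (0.005 to 0.25 and -0.67 to 0.01), so their place outside was not beyond counting error.

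By longest transcript, a comparison chosen after seeing the data, the members stood higher among their neighbours. The medians of genes of like transcript length were -0.39 for Lgals1, -0.23 for Lgals3, -0.25 for Lgals4, -0.21 for Lgals9, -0.11 for Lgals3bp and -0.04 for Lgals8. Lgals3 then lay near the middle of 1246 genes, with 45.8% lower than it, and Lgals4 near that of 1146, with 54.7% lower. Lgals9, Lgals8 and Lgals3bp lay above 75.1%, 84.5% and 88.1% of their genes. With a cubic trend on transcript length removed, the log2 ratio was -0.12 for Lgals1, -0.02 for Lgals3, 0.02 for Lgals4, 0.12 for Lgals9, 0.16 for Lgals8 and 0.22 for Lgals3bp, against a spread of single genes around the trend of 0.248 (SD over genes). With the trend on implied length removed, those values were -0.22, -0.13, -0.16, 0.005, 0.02 and 0.17. The direction of Lgals9 therefore turned with the trend removed by either length and that of Lgals4 by transcript length, and the 2 lower members that kept their direction, Lgals1 and Lgals3, were closer to 0. The part of the length trend in these values was not tested further, and whether it arose in the cells, the RNA or the library cannot be told apart with 1 library per condition.

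**Figure D3:**
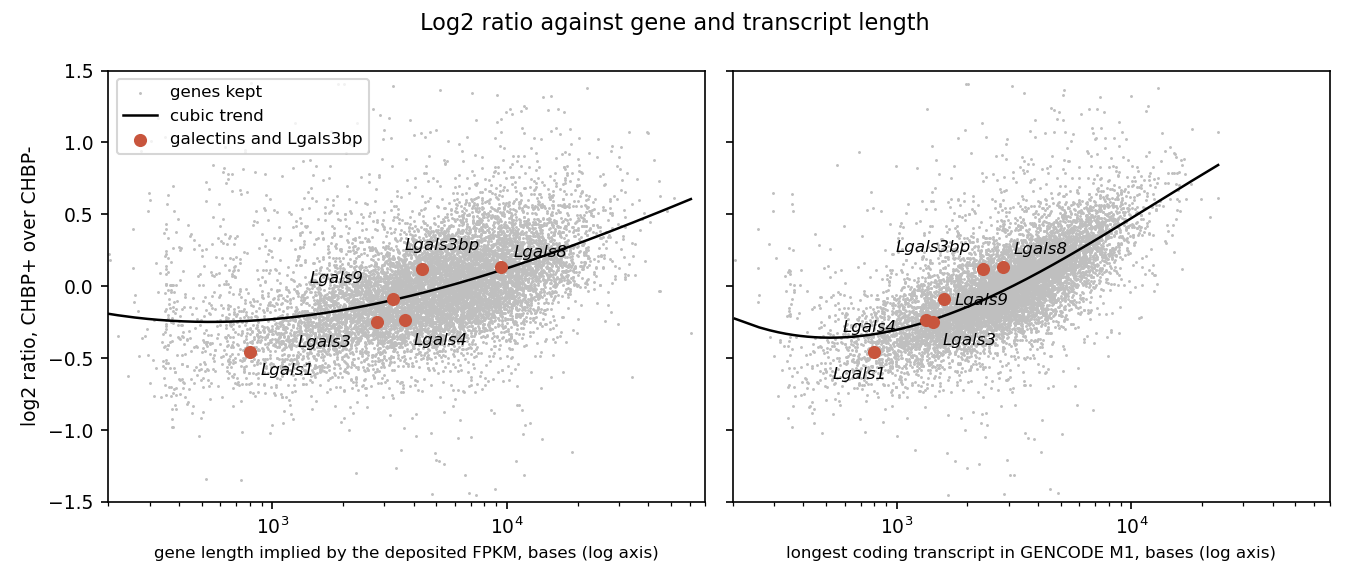
Log2 ratio of CHBP+ over CHBP- M-MDSC for each gene kept (grey) against the gene length implied by the deposited FPKM (left, 10948 genes) and the longest coding transcript (right, 10211 genes), both in bases on log axes, with a cubic trend (line) and the 6 members kept (points). Lgals1 lies low at the short end and Lgals8 high at the long end of the members. Outside the axes lie 67 genes on the left and 31 on the right.

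Galectins act through glycoproteins on the cell surface, and 22 genes of such counter-receptors were looked up. They had 23 entries, since Itgam is listed under 2 overlapping entries, and 20 entries were kept. Of these, 12 were higher and 8 lower in CHBP+ M-MDSC, with a median log2 ratio of 0.16 against -0.03 for all genes kept, and the median was 0.0027 with entries that overlap another gene with reads left out. Past 1.5-fold were 2 entries, both higher, where 3.42% of all genes kept were higher and 2.89% lower by that measure. Nrp1, which encodes the co-receptor neuropilin-1, went from 972 reads to 1558 (9.98 and 16.2 FPKM), a log2 ratio of 0.65. The second Itgam entry went from 8703 to 13147 reads (0.61), and the main one had 0.56. Summed, the 2 Itgam entries had a CPM ratio of 1.496, short of 1.5-fold. Ptprc, which encodes CD45, a galectin-1 and galectin-3 ligand, was at 23.7 and 33.1 FPKM (0.46). The lowest were Cd7 (34 and 18 reads, -0.46) and Bsg (57.2 and 45.2 FPKM, -0.33). With the transcript-length trend removed, Nrp1 was at 0.40, short of the 1.5-fold threshold, the main Itgam entry at 0.40, Ptprc at 0.22, Cd7 at -0.15 and Bsg at -0.15. Havcr2, which encodes the galectin-9 receptor TIM-3 and was chosen for that role outside the rule for named genes, had 337 and 441 reads, a log2 ratio of 0.34 that was 0.38 with that trend removed.

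The enzymes that build galectin ligands gave ratios on both sides of 0. Of 20 genes for N-glycan branching and poly-LacNAc synthesis, 17 were kept, with 8 higher, 9 lower and a median of -0.02. The branching enzymes Mgat4a (6.77 and 9.44 FPKM) and Mgat5 (5.81 and 8.01 FPKM) had the highest log2 ratios, 0.43 and 0.40. With the transcript-length trend removed, Mgat4a was at 0.09 and Mgat5 at 0.39. Mgat1, which opens the pathway to branched N-glycans, was at 1.85 and 1.19 FPKM (-0.38), and B4galt3, which overlaps Ppox (438 and 371 reads), was at 3.63 and 2.89 FPKM (-0.25). B3gnt2, which extends poly-LacNAc chains, was past 1.5-fold, with 3143 and 820 reads and a log2 ratio of -1.80. It overlaps Gm28048 and 2 other genes with reads, and summed with these its CPM ratio was 1.03. Sialyltransferases, some of which can mask galactose from certain galectins, had 8 genes kept, 4 on each side and none past 1.5-fold. St3gal1 and St8sia4 were highest (both 0.38), and St3gal4 (-0.16) and St6galnac4 (-0.12) lowest. With the transcript-length trend removed these were at 0.18, 0.17, -0.02 and -0.18.

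Partners of galectin-3 and galectin-8 in the response to damaged lysosomes had 15 genes kept of 16, with 8 higher, 7 lower and a median of 0.04. Chmp3, an ESCRT-III subunit, was the only gene of this list past 1.5-fold, with 854 and 1644 reads (11.2 and 21.8 FPKM) and a log2 ratio of 0.90. It overlaps no gene with reads, and its ratio was 0.96 with the transcript-length trend removed. Trim16, which works with galectin-3 at such lysosomes, was at 1.80 and 2.65 FPKM (0.38) and Pdcd6ip (ALIX) at 28.6 and 32.5 FPKM (0.18). With that trend removed Trim16 was at 0.29 and Pdcd6ip at -0.08, a change of direction. Another ESCRT-III subunit, Chmp4b, was at 90.8 and 68.3 FPKM (-0.41), and Tfeb at 2.55 and 1.95 FPKM (-0.27). Both stayed below 0 with that trend removed, at -0.20 and -0.18.

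Interferon-stimulated genes were set beside Lgals9 and Lgals3bp, which interferons are known to induce. Of 14 such genes 11 were kept, 4 higher and 7 lower, with a median of -0.17. Isg15 was lower by more than 1.5-fold (13.8 and 8.86 FPKM, -0.59), but was at -0.34 with the implied-length trend removed and -0.25 with the transcript-length trend removed, short of that threshold. Mx1 had 0.45, Bst2 -0.44 and Ifi35 -0.27, and Ifit2 had 0.08. With the transcript-length trend removed these were at 0.42, -0.10, -0.03 and 0.01. The list thus had genes in both directions, more of them lower. Its median was -0.003 with the transcript-length trend removed. With the implied-length trend removed it was -0.08, with 3 genes higher and 8 lower. Lgals9 was at -0.09 and Lgals3bp at 0.12. The range of this list held every other member kept as well, so a place within it does not set these genes apart.

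**Figure D4:**
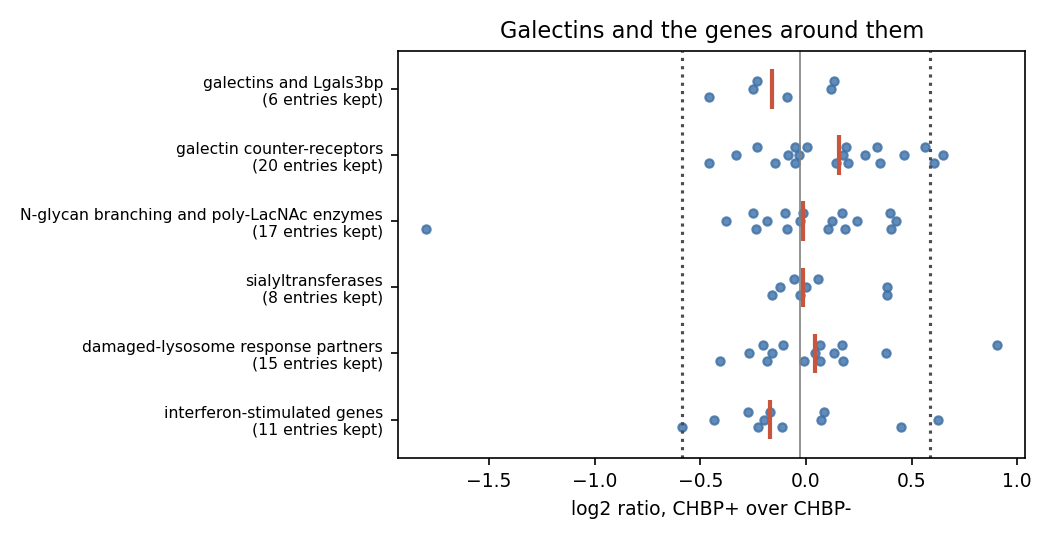
Log2 ratio of CHBP+ over CHBP- M-MDSC for each entry kept (points) of the galectin list and of 5 lists of related genes, with each list's median (thick line), the median of all genes kept (thin line, -0.03) and dotted lines at 1.5-fold. The galectin median lies at -0.16 and that of the counter-receptors at 0.16, and single genes such as B3gnt2, Chmp3 and Nrp1 lie past the dotted lines.

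Genes whose levels were nearest to each abundant member were named by distance over log2(FPKM + 1) in the 2 libraries, which with so few libraries gives likeness of level only. Nearest to Lgals3 were Cd52 (919 and 792 FPKM, a distance of 0.0751), Pkm and Ifitm1. Nearest to Lgals1 (800 bases) were the ribosomal protein pseudogene entries Rpl27-ps3 (626 and 468 FPKM, 0.0427), Rpl9-ps6 and Rps26-ps1, with implied lengths of 475, 691 and 410 bases. Multi-mapping handling is not given, so reads of other ribosomal protein genes in these entries cannot be told apart. Lgals9 lay nearest to Sash3, Ppp2r1a and Dpep2, and Lgals3bp to Fam168b, Aaed1 and Arhgap25. Like level did not always go with like length. The neighbours of Lgals3 (2787 bases) had implied lengths of 1400, 2599 and 1305 bases. Those of Lgals9 (3269 bases) had 2677, 5028 and 7160, and those of Lgals3bp (4324 bases) 11466, 972 and 6247.

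The members lie at these places in the deposited coordinates, which overlap the RefSeq gene of that name on GRCm38 for all 8. The ends can differ: the deposited Lgals3 begins at 47367751 and the RefSeq gene at 47373860, so the Lgals3 window shown above lies inside the deposited gene. Lgals1 (ENSMUSG00000068220) is on chromosome 15 from 78926725 to 78930465, and Lgals3 (ENSMUSG00000050335) on chromosome 14 from 47367751 to 47386160. Chromosome 11 holds both Lgals9 (ENSMUSG00000001123, 78962974 to 78984946) and Lgals3bp (ENSMUSG00000033880, 118392751 to 118402092). Lgals8 (ENSMUSG00000057554) is on chromosome 13 from 12439415 to 12464944. Lgals4 (ENSMUSG00000053964, 28833854 to 28841708) and Lgals7 (ENSMUSG00000053522, 28863853 to 28866284) are neighbours on chromosome 7, and Lgals12 (ENSMUSG00000024972) is on chromosome 19 from 7596660 to 7607193. The coding part of the longest GENCODE M1 transcript was 408 bases for Lgals1, 795 for Lgals3 and 1062 for the tandem-repeat Lgals9.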

How the data were processed

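RNA of 1 CHBP- and 1 CHBP+ M-MDSC library was sequenced as single-end reads, and samples were grouped by the treatment in their labels. The authors trimmed the reads and removed short and ribosomal ones. Their methods name TopHat2, mm9 and HT-seq, whereas the submitters' processing notes name HISAT2 2.0.4, Cufflinks 2.1.1, Cuffdiff, mm10 and GRCm38. Of 10273 genes kept that matched a RefSeq symbol, 99.9% overlapped it on GRCm38. The deposited counts are raw reads per gene. The deposited FPKM equal the count per implied gene length and per total count, and that length came out whole within 0.05 bases for 100.0% of genes kept, so no other scaling was applied. Multi-mapping and strand handling are not given in the sources used here. Of the genes kept, 93.3% had a GENCODE M1 coding transcript, used for length only.

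Log2 ratios used a pseudocount of 1 FPKM, which understates the change of low genes. No count model was fitted, because 1 library per condition leaves no spread to estimate. The call was the 1.5-fold threshold, and intervals are 95% Clopper-Pearson intervals. At this depth 3 reads are 0.182 CPM (CHBP-) and 0.184 CPM (CHBP+). The members and lists were chosen with earlier results of these data known. Genes named from other lists are those past 1.5-fold and otherwise the 2 highest and 2 lowest, with the 3 nearest genes for members of at least 10 FPKM, and 1 gene that this rule names is not reported here. Alternatives were a pseudocount of 0.1, other filters, median centring, TMM (edgeR 4.0.16), size factors (DESeq2 1.42.0), CPM, a fold threshold of 2, removal of a cubic trend with length, and leaving out overlapping genes. Those by longest transcript were added after seeing the data. Scripts ran in R 4.3.3 and Python 3.11.15 (scipy 1.17.1, pandas 2.3.3, numpy 2.4.6) and were tested on simulated data. The study's protein measurements were not analysed here.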

Additional observations from a re-analysis of the deposited data

How the results depend on the processing

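No member that was counted passed the fold threshold under any alternative run. Lgals1 ran from -0.46 to -0.12 and Lgals3 from -0.25 to -0.02, with no change of sign, and Lgals8 and Lgals3bp stayed above 0. Lgals9 changed sign with either length trend removed and Lgals4 with the transcript trend removed. Lgals7, with 4 and 2 reads, was at -0.12 with the pseudocount of 1, which understates the change of low genes, and at -0.57 with 0.1. The cause of the sign changes was not tested. Of all genes kept, 374 were at least 1.5-fold higher and 316 lower. These became 665 and 571 with a pseudocount of 0.1, 609 and 395 with CPM, and 85 and 46 at a fold threshold of 2. They were 312 and 168 with the trend on implied length removed. Fewer genes were counted at 5 FPKM (218 and 209), without overlapping genes (232 and 228), and with the trend on transcript length removed (195 and 98, over 10211 genes). Those counts are therefore not directly comparable with the others. The members' median was 0.066 with the transcript trend removed. The counter-receptor median was 0.0027 without overlapping entries, which takes out both Itgam entries among others. The medians were 0.11 for glycan enzymes and -0.27 for interferon-stimulated genes at 5 FPKM, -0.082 for lysosome partners with the implied-length trend removed, and -0.0027 for interferon-stimulated genes with the transcript trend removed. For the other galectin-fold genes, only Lgalsl was kept, and the median was 0.36 with a pseudocount of 0.1, 0.33 with CPM and 0.00 with no filter. By genes of like transcript length, the medians were -0.23 for Lgals3, -0.25 for Lgals4, -0.043 for Lgals8 and -0.21 for Lgals9. As shares of galectin reads, Lgals3 took 77.5% and 78.0% in CHBP- and CHBP+ M-MDSC, Lgals1 14.9% and 13.0%, and Lgals9 4.73% and 5.31%. Per longest transcript they took 70.6% and 72.4%, 24.1% and 21.4%, and 3.85% and 4.41%. No paired analysis was possible because each condition has a single library, which also left none to omit.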
